A study of Mus musculus with 4 samples.

Results

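The miRNAs named miR-297, miR-466, miR-467 and miR-669 form a large repeat-type group of the mouse, and 58 of the 1167 rows of a small RNA table from the main olfactory epithelium carry one of these names. Rows were taken by name, with any letter, locus number and arm. Rows whose counts were identical in both genotypes share reads or cannot be told apart, so they were counted once, which left 52 distinct rows: 4 of miR-297, 23 of miR-466, 8 of miR-467 and 17 of miR-669. The study set 2 small RNA libraries from wild-type mice against 2 from AC3-/- mice. All were male C57BL/6 mice of 3 months, and the tissue was the sensory lining of the nose. AC3, adenylyl cyclase 3, produces the cAMP through which an activated odour receptor signals; the labels describe AC3-/- with no restriction to a cell type. Whether each library came from a different mouse is not given, so the spread behind every p-value may be technical. In a bulk tissue sample, fewer cells of a type and less RNA per cell cannot be told apart.

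A miRNA gene is transcribed as part of a longer RNA that folds into a hairpin, and Drosha and Dicer release a short duplex from it. Its strands are called 5p and 3p after their place in the hairpin, and one of them guides Argonaute to messenger RNAs through its seed, bases 2 to 8. Most genes of this group lie as a tandem array inside an intron of Sfmbt2, which encodes a Polycomb-type chromatin protein and is an imprinted gene known for expression from the paternal copy in the placenta. The array is known from mouse and rat. Its miRNAs are rich in alternating U and G on the 5p strand and in alternating A and C on the 3p strand, and many of them differ by few bases.

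RefSeq (GRCm38.p6) lists 82 genes under these 4 names, and 72 of them lie inside Sfmbt2, which runs on chromosome 2 from 10370440 to 10595253. The 72 span 51617 bases, from 10466663 to 10518279, all in intron 10 of the transcript Sfmbt2-201, which has 23 exons. GENCODE gives a strand for 71 of them, and each is on the plus strand, the strand of Sfmbt2. The other 10 genes lie elsewhere. By name, 40 of the 52 distinct rows come from genes inside Sfmbt2 alone, 6 from genes elsewhere alone and 4 from both places. miR-466a-3p and miR-466a-5p matched no gene listed with their letter. The list does hold a Mir466 without a letter, inside the Sfmbt2 array from 10507918 to 10507990, to which no row was assigned. "Sfmbt2-type" therefore describes most of the group but not miR-466i, miR-466j, miR-466k, miR-466q or miR-467f.

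**Figure D1:**
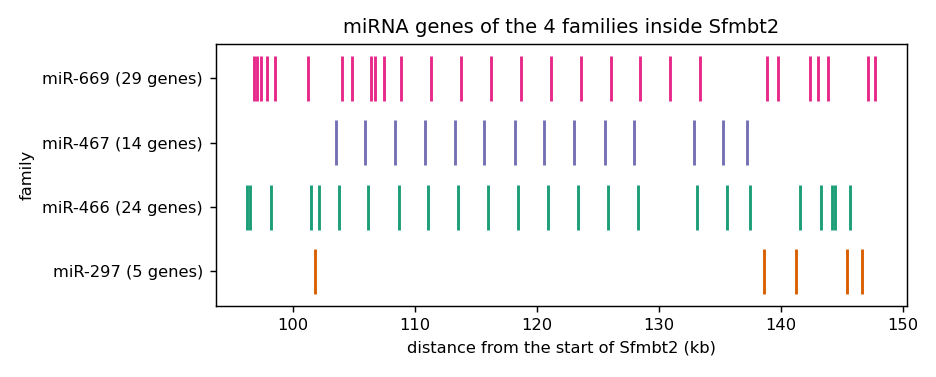
Each vertical line is a miRNA gene inside Sfmbt2, placed by its distance in kb from the start of Sfmbt2, with a row for each family: 29 genes of miR-669, 14 of miR-467, 24 of miR-466 and 5 of miR-297. The 3 larger families alternate along the middle of the array, while 4 of the 5 miR-297 genes sit toward its far end.

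Mature sequences were found in RefSeq for 5 of the 58 rows, all from genes outside Sfmbt2. They are shown for the alternating letters that the group is known for, which leave little to tell its members apart. miR-574-5p, which belongs to another gene on chromosome 5 and has a similar U and G repeat, is set beside them. Capitals mark the seed.
miR-466q: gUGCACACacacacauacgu
miR-466i-3p: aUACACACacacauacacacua
miR-467f: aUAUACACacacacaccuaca
miR-466j: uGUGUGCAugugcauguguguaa
miR-466k: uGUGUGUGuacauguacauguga
miR-574-5p: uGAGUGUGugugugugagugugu
No seed was shared between these 6, and no other of the 1679 mature miRNA names in the RefSeq table had the seed of any of them. Those names include only 5 of the 58 rows of the group. The search therefore cannot show whether these seeds recur among the other rows, and the shares given next leave those rows out as well. The letters ACACAC, searched on the RNA strand alone, occur in miR-466q, miR-466i-3p and miR-467f and in 0.655% of the 1679 names. The letters UGUGUG occur in miR-466j, miR-466k and miR-574-5p and in 1.67%.

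miR-466q lies in an intron of Tnik on its own strand (gene at chromosome 3 from 28419943 to 28420018, GRCm38). Mir466i lies in an intron of Cdk13 on the opposite strand (chromosome 13 from 17747473 to 17747593). Mir467f lies in an intron of Fxr2 on the opposite strand (chromosome 11 from 69635400 to 69635519). Mir466j (chromosome 10 from 60960723 to 60960844) lies outside any other annotated gene, and Mir466k (chromosome 3 from 85467377 to 85467498) lies in an intron of Gm37240 on the opposite strand.

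The group held a small share of the summed reads in this tissue. The table gives normalised read counts, in which each library was divided by its own size factor and the 2 libraries of a genotype were averaged. The most abundant row of the group, miR-467a-5p, which has the same counts as miR-467b-5p, had means of 299.3 (AC3-/-) and 214.8 (wild type), and 220 rows of the table lay above it in AC3-/- and 247 in wild type. The highest mean of any miRNA was 1501741 in AC3-/- and 1351262 in wild type, with each genotype taken on its own. Summed over the 52 distinct rows, the group came to 1326 normalised reads in AC3-/- and 922.9 in wild type, out of column totals of 8739148 and 12320877. Its median row had a mean of 6.007 in AC3-/- and 3.428 in wild type, beside medians of 4.928 and 5.049 over all rows. Low levels were therefore not particular to the group. Most miRNAs known from sensory epithelium and neurons, the tissue on the label, were abundant. With AC3-/- given first, miR-183-5p had means of 322736 and 1304447, miR-200b-3p 399796 and 1351262, and miR-9-5p 107472 and 103336. Of the other neuron markers, miR-125b-5p had 23997 and 25994. miR-124-3p had only 205.6 and 29.34, less than miR-467a-5p. Striated muscle was represented by miR-1a-3p at 5258 and 6559, with miR-133a-3p at 196.1 and 231.3 and miR-206-3p at 8.711 and 16.16. Red blood cells were represented by miR-451a at 4562 and 3447, with miR-486a-5p at 613.4 and 670.2 and miR-144-3p at 180.9 and 183.3.

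Whole reads of each library were worked back from the means, as every mean is a whole-number mix of 2 steps. All 58 rows of the group had 1 solution. The libraries are called a and b within a genotype, and values are given in that order from here on. Library a is the one with the larger size factor, and the letters say nothing of the study's replicate numbers. The 52 distinct rows held 1200 and 1764 reads for AC3-/- and 958 and 708 for wild type. Only 2 distinct rows had a mean of at least 100 in either genotype, 17 had between 10 and 100, and 33 stayed under 10.

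In the authors' deposited table no row of the group had an adjusted p under 0.05 in either direction, where 0.0857% of 1167 rows passed as higher in AC3-/- and 0% as lower. The smallest adjusted p in the group was 0.9395 in the authors' deposited table. At an unadjusted p under 0.05 the authors' deposited table has 1 distinct row of the group, miR-297b-3p, higher in AC3-/-, beside 1.54% of all rows higher and 1.97% lower. limma was fitted to log2(normalised value + 1) of the recovered libraries over 446 miRNAs. These had reads recovered for every library and a mean over both genotypes of at least 10. Rows whose reads could not be recovered, among them the abundant miR-183-5p and miR-200b-3p, were left out. limma tested 15 distinct rows of the group and called none. There 0% of the 446 passed the adjusted p in each direction, and at an unadjusted p under 0.05 1 of the 15 was higher, against 2.47% of the 446 higher and 1.57% lower. With 2 libraries a side, the smallest p an exact permutation test can give is 0.333.

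Most rows of the group nevertheless had a higher mean in AC3-/-. By the authors' deposited table, 45 of the 52 distinct rows had a log2 fold change above 0, where 49.5% of all 1167 rows did, and 7 were below 0, where 50.5% of all rows were. These fold changes are shrunken toward 0. The median over the 52 was 0.25, with a middle range from 0.09 to 0.41, beside a median of -0.01 and a middle range from -0.20 to 0.18 over all rows. The rows are not independent, since they share reads and libraries. With rows that differ by at most 1 read in each library counted once, 41 of 48 were higher in AC3-/-. The count of 45 rested on AC3-/- library b. Without it 29 of the 52 distinct rows had the higher mean in AC3-/-, where 43.4% of the 1121 rows with library values did. Without AC3-/- library a, wild-type library a or wild-type library b the count was 44, 46 and 41, where 44.7%, 53.9% and 54.1% of the 1121 rows had the higher mean in AC3-/-.

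**Figure D2:**
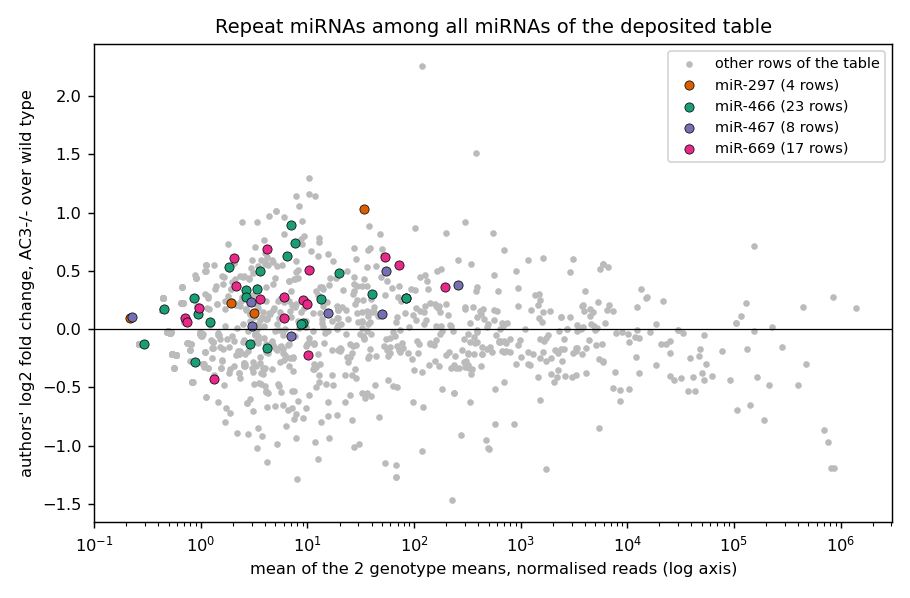
Each point is a row of the deposited table, placed by the mean of the 2 genotype means on a log axis and by the deposited log2 fold change (AC3-/- over wild type); coloured points are the 52 distinct repeat miRNA rows by family and grey points the rest. The coloured points lie between -0.43 and 1.03, with 45 above 0, and none of them passed the adjusted p of 0.05.

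miR-297b-3p had the largest deposited, shrunken log2 fold change of the group, at 1.03. Its unshrunken log2 ratio of means was 1.41, and some rows with fewer reads had larger ones, such as miR-466b-5p at 1.68. Its gene, Mir297b, lies in intron 10 of Sfmbt2 on chromosome 2 from 10511667 to 10511775. It had 38.3 and 61.0 normalised reads in AC3-/- (44 and 67 reads) and 23.4 and 14.0 in wild type (22 and 12 reads). Both AC3-/- libraries lay above both wild-type libraries. The means were 49.66 ± 16.0 in AC3-/- and 18.7 ± 6.61 in wild type (SD, n = 2), 2.65-fold apart. The authors' deposited table gives it an adjusted p of 0.9395 and an unadjusted p of 0.0209. By limma the log2 difference was 1.37 ± 0.47 (SE) and the adjusted p 0.932. Without wild-type library a, limma gave 1.72 with an adjusted p of 0.02, a fit that takes the spread of wild type from the AC3-/- libraries, as 1 wild-type library has none of its own. The other 3 such fits did not pass: it was 1.02 without wild-type library b (adjusted p = 0.459), 1.70 without AC3-/- library a (0.999) and 1.04 without AC3-/- library b (0.993). It was the 1 row of the group called with a library left out. The opposite strand, miR-297b-5p, had 0 and 6 reads in AC3-/- and 1 and 1 in wild type, too few for a comparison.

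The miR-467 rows were the most abundant of the group per row. miR-467a-5p, which cannot be told apart from miR-467b-5p, had 290.1 and 308.6 normalised reads in AC3-/- (333 and 339 reads) and 286.9 and 142.7 in wild type (270 and 122 reads). Wild-type library a lay just under the AC3-/- pair, and the lower wild-type mean came from library b. The means were 299.3 ± 13.1 and 214.8 ± 102 (SD, n = 2), 1.39-fold apart, and the limma log2 difference was 0.56 ± 0.44 (SE; adjusted p = 0.932). With each library left out it lay between 0.06 and 1.06. RefSeq lists 10 genes of miR-467a and 1 of miR-467b, all in the Sfmbt2 array, with Mir467a-1 at 10476346 to 10476418 and Mir467b at 10481248 to 10481320 on chromosome 2.

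The other strand of these hairpins had a different order of libraries. For miR-467a-3p, which has the same counts as miR-467d-3p, AC3-/- showed 47.0 and 87.4 normalised reads and wild type 40.4 and 45.6. Here AC3-/- library b stood above the other 3, which lay close together. The limma log2 difference was 0.57 ± 0.43 (SE; adjusted p = 0.932), and 0.13 to 1.01 with each library left out. miR-467e-5p had 52.3 and 52.8 against 56.3 and 37.4 for wild type, so that the genotypes overlapped, and miR-467c-5p had 12.2 and 20.9 against 15.9 and 12.9, overlapping as well.

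Among the miR-669 rows, miR-669a-3p was the most abundant. It had 139.4 and 314.0 normalised reads in AC3-/- (160 and 345 reads) and 149.8 and 175.4 in wild type (the latter 150 reads). AC3-/- library a was the lowest of the 4 and library b the highest, so the genotypes overlapped. The means were 226.7 ± 123 and 162.6 ± 18.1 (SD, n = 2), and the limma log2 difference was 0.37 ± 0.48 (SE; adjusted p = 0.932), which turned to -0.22 without AC3-/- library b. miR-669c-5p and miR-669a-5p, the most abundant 5p rows of this family, did not overlap between genotypes. AC3-/- had 99.3 and 80.1 normalised reads of miR-669c-5p and wild type 70.1 and 40.9. Of miR-669a-5p AC3-/- had 61.9 and 73.7 and wild type 48.9 and 30.4. Both AC3-/- libraries lay above both wild-type libraries for each of these, with wild-type library b lowest. The limma log2 differences were 0.72 ± 0.41 (SE) for miR-669c-5p and 0.79 ± 0.40 for miR-669a-5p (adjusted p = 0.932 for each). With each library left out they lay between 0.34 and 1.11 and between 0.46 and 1.13. Mir669c lies on chromosome 2 from 10509296 to 10509404, and miR-669a-5p has 12 genes by name in the array, among them Mir669a-1 from 10476853 to 10476949.

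The scarcer miR-669 rows with a mean of at least 10 in either genotype varied more. AC3-/- had 8.71 and 18.2 normalised reads of miR-669b-5p and wild type 5.31 and 9.36. For miR-669d-5p these were 9.58 and 10.9 against 8.50 and 7.02. miR-669o-5p stood at 11.3 and 11.8 for AC3-/- against 14.9 and 1.17 for wild type, the last of these a single read. Of the 19 rows of the group with a mean of at least 10 in either genotype, miR-669f-3p was the 1 with the lower mean in AC3-/-. That filter favours rows that are high in 1 genotype, so this count cannot be read as a result about the group. miR-669f-3p had 12.2 and 5.46 against 14.9 and 8.19 and a limma log2 difference of -0.39 ± 0.66 (SE, adjusted p = 0.932).

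The miR-466 rows were led by miR-466a-3p and miR-466b-3p, which differed by 1 read in all (343 and 342 reads) and so were nearly the same observation. miR-466a-3p had 54.9 and 134.7 normalised reads in AC3-/- (63 and 148 reads) and 74.4 and 72.5 in wild type (70 and 62 reads). The wild-type libraries lay between the AC3-/- libraries. The limma log2 difference of miR-466a-3p was 0.23 ± 0.50 (SE; adjusted p = 0.947), and it turned to -0.41 without AC3-/- library b. miR-466d-3p had 26.1 and 66.4 (AC3-/-) against 24.4 and 43.3 (wild type), again with AC3-/- library b highest and the genotypes overlapping. Its gene Mir466d lies next to Mir297b, at 10511967 to 10512062 on chromosome 2.

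Among the other miR-466 rows with a mean of at least 10 in either genotype, miR-466i-5p showed 20.9 and 28.2 normalised reads for AC3-/- and 10.6 and 19.9 for wild type. miR-466q, with its run of A and C after the seed, had 12.2 and 18.2 against 11.7 and 11.7. Neither comes from Sfmbt2, and for both the AC3-/- libraries lay above the wild-type libraries, by little at the nearest pair. miR-466b-5p had 9.58 and 11.8 for AC3-/- (11 and 13 reads) against 3.19 and 3.51 for wild type (3 and 3 reads), and the authors' deposited table gives it a log2 fold change of 0.90 with an adjusted p of 0.9395. miR-466f-3p had 6.10 and 16.4 against 3.19 and 4.68.

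**Figure D3:**
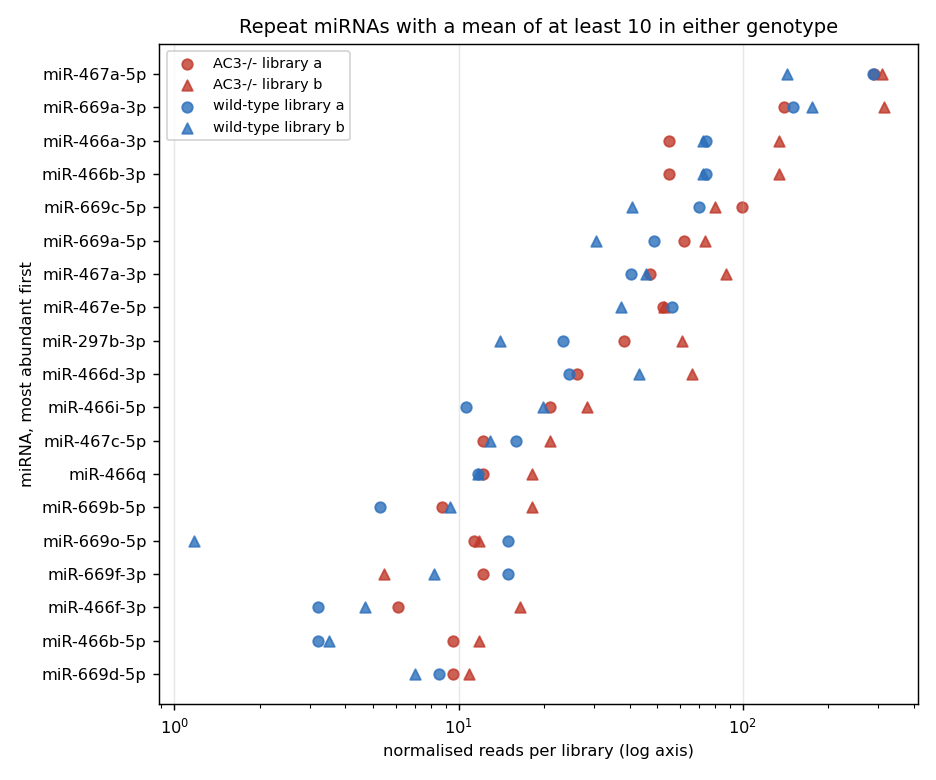
Normalised reads on a log axis for the 19 distinct rows with a mean of at least 10 in either genotype, most abundant at the top, with a point for each of the 4 libraries (red AC3-/-, blue wild type; circles library a, triangles library b). AC3-/- library b is the rightmost point in most rows, and both red points lie to the right of both blue points in 10 of the 19.

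Both AC3-/- libraries lay above both wild-type libraries in 10 of these 19 rows, and in none of them below. Since a mean of at least 10 in either genotype favours rows that are high in one, the share is better read over rows with a mean of at least 10 over both genotypes: 7 of the 15 distinct rows of the group, where 16.8% of all 446 such rows did so, and 0 of the 15 below, where 17% of the 446 were. Over all rows with library values it was 15 of the 52 above, where 14.8% of 1121 were, and 1 of the 52 below (miR-669e-3p, with 1 and 0 reads for AC3-/- and 2 and 2 for wild type), where 13.5% were. Library by library the 15 rows were less even, and they include both miR-466a-3p and miR-466b-3p, which were nearly the same observation. AC3-/- library b exceeded wild-type library b in 14 of the 15 (49.6% of the 446 rows) and wild-type library a in 13 (48.9%). AC3-/- library a exceeded each of them in 9, beside 51.1% and 49.1% of the 446. Within AC3-/-, library b exceeded library a in 13 of the 15, where 51.3% of the 446 did.

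The 33 rows with a mean under 10 in both genotypes held 1 to 37 reads each over the 4 libraries, with a median of 11, and 396 reads in all. They gave 8.66% of the summed level in AC3-/- and 8.43% in wild type. By the authors' deposited table, 27 of the 33 had a log2 fold change above 0 and 6 below, from -0.43 for miR-669e-3p to 0.68 for miR-669e-5p. Over all 1167 rows, 49.5% were above 0 and 50.5% below. The share over other rows with a mean under 10 was not worked out, so the count cannot be read as particular to the group. miR-669e-5p had 3 and 12 reads for AC3-/- and 2 and 1 for wild type. 4 distinct rows had no read in wild type (miR-297c-5p, miR-466k, miR-466l-3p and miR-467f) and 2 had none in AC3-/- (miR-466a-5p and miR-466n-3p). A count of 0 allows up to 3 reads in a library, which is 2.61 and 2.73 normalised reads in AC3-/- and 3.19 and 3.51 in wild type. The mean in the other genotype stayed under these values for all 6, but a mean over 2 libraries is lower than its higher library. By library, miR-466a-5p had 3.51 in wild-type library b, above both AC3-/- values. miR-466k had 3.48 in AC3-/- library a, above the 3.19 of wild-type library a. Among them miR-466k had all of its 4 reads in AC3-/- library a, and miR-467f, which has the same counts as 2 other rows, had 1 read. Rows with 1 read can have the same counts by chance, so counting them once is a convention there.

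Summed over families, miR-297 had 56.37 ± 18.1 normalised reads in AC3-/- and 22.58 ± 7.13 in wild type (SD, n = 2), of which miR-297b-3p gave most. miR-466 had 355.9 ± 190 and 256.3 ± 22.9, miR-467 449.5 ± 53.0 and 331.4 ± 110, and miR-669 463.7 ± 135 and 312.6 ± 40.2 (SD, n = 2 each). The folds were 2.5, 1.39, 1.36 and 1.48 in this order. The miR-466 sum holds both miR-466a-3p and miR-466b-3p, which were nearly the same observation, and it was not worked out with them counted once. The exact two-sided permutation p was 1 for miR-466, whose genotypes overlapped, and 0.333 for each of the other families. Without AC3-/- library b the miR-466 fold was 0.863, below 1, and those of miR-297, miR-467 and miR-669 were 1.93, 1.24 and 1.18. Without wild-type library b the miR-467 fold was 1.1. In the authors' deposited table the rows above 0 were 4 of 4 for miR-297, 19 of 23 for miR-466, 7 of 8 for miR-467 and 15 of 17 for miR-669. The summed level of the whole group was 1045.4 and 1605.7 for AC3-/- and 1017.9 and 827.9 for wild type, 1.44-fold higher in AC3-/-, with an exact permutation p of 0.333, two-sided and the smallest that 2 against 2 can give. AC3-/- library a was 1.03-fold wild-type library a, so that the nearest pair hardly differed. Without AC3-/- library b the fold was 1.13. With rows that differ by at most 1 read in each library counted once, an alternative chosen after seeing the data, the group's fold was 1.45.

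Strand by strand, the difference came from different libraries. The 26 distinct 5p rows summed to 629.8 and 707.3 in AC3-/- and 580.2 and 341.5 in wild type, so wild-type library b was low. The 20 distinct 3p rows summed to 397.2 and 867.5 in AC3-/- and 421.8 and 471.3 in wild type, so AC3-/- library b was high and the genotypes overlapped. The 3p sums hold both miR-466a-3p and miR-466b-3p, which were nearly the same observation. The folds were 1.45 for 5p and 1.42 for 3p, with exact two-sided permutation p of 0.333 and 1. Without AC3-/- library b the 3p fold was 0.89, below 1, and the 5p fold 1.37. Without wild-type library b the 5p fold was 1.15. Wild-type library b was also low in miRNAs known from some other cell types. The 3 leukocyte markers (miR-142a-3p, miR-223-3p and miR-150-5p) summed to 8231 and 10391 normalised reads for AC3-/- and 8751 and 2589 for wild type, each lowest in that library. The 2 of 3 multiciliated cell markers with library values (miR-34b-5p and miR-449a-5p) summed to 5296 and 7832 against 11270 and 1144, both lowest there too. Of the 3 red blood cell markers 2 were lowest there, with sums of 6068 and 4644 against 5519 and 3081. The 3 striated muscle markers were not, with sums of 6537 and 4389 against 6603 and 7011. None of the 8 sensory epithelium markers had values for every library. Among their opposite strands, miR-182-3p had 956.3 and 4671.8 in wild type, miR-183-3p 272.0 and 1410.3 and miR-200b-5p 3783.8 and 11471.9. These were higher in library b, while miR-429-5p went the other way at 2.13 and 1.17. The part of these cell types in the 5p difference was not tested.

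The ratio of summed 5p to summed 3p reads was 1.59 and 0.815 for AC3-/- and 1.38 and 0.725 for wild type. It differed more within each genotype than between the means of the genotypes, with 1 library of each genotype on either side of 1. For miR-467a and miR-669a, the names with both strands at a mean of at least 10 over the genotypes, library a lay above library b within each genotype. miR-467a-5p over miR-467a-3p was 6.17 and 3.53 in AC3-/- and 7.11 and 3.13 in wild type. These 5p counts are also those of miR-467b-5p and the 3p counts those of miR-467d-3p, so the ratio may mix hairpins. miR-669a-5p over miR-669a-3p was 0.444 and 0.235 against 0.326 and 0.173. Over 110 other precursors with both strands at such a mean, the median ratio was 1.29 and 1.38 in AC3-/- and 1.51 and 1.46 in wild type. How many of the 110 had library a above library b within each genotype was not worked out.

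**Figure D4:**
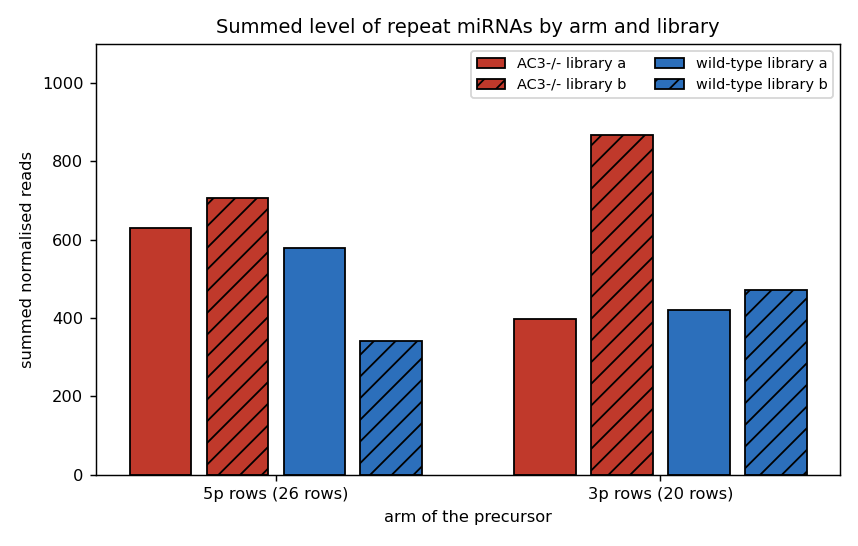
Summed normalised reads of the 26 distinct 5p rows and the 20 distinct 3p rows in each library (red AC3-/-, blue wild type; plain bars library a, hatched bars library b). Among 5p rows wild-type library b is lowest at 341.5, and among 3p rows AC3-/- library b stands apart at 867.5 while the other 3 lie between 397.2 and 471.3.

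miR-574-5p, the U and G repeat miRNA from outside the group, showed 238.7 and 407.8 normalised reads for AC3-/- and 233.8 and 153.2 for wild type. The authors' deposited table gives it a log2 fold change of 0.59 with an adjusted p of 0.9395, and the limma log2 difference was 0.72 ± 0.44 (SE; adjusted p = 0.932). AC3-/- library b was highest and wild-type library b lowest, as in the sum over the group. Its opposite strand, miR-574-3p, had 402.5 and 754.6 against 430.3 and 645.5, with library b above library a in both genotypes and a limma log2 difference of 0.06 ± 0.46 (SE; adjusted p = 0.976).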

How the data were processed

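Small RNA libraries of 2 wild-type and 2 AC3-/- samples were grouped by title. The authors deposited 1 table of 1167 miRNAs. Its 2 abundance columns hold a signal: per the file headers and their values, these are genotype means of normalised read counts. The log2 fold change (AC3-/- over wild type), p-value and adjusted p-value are the authors' deposited values. The deposited log2 fold change is shrunken: in 302 rows with a mean of at least 100 its median size was 86.0% of the unshrunken ratio's. GRCm38, Bowtie and DESeq 1.8.3 are named, per the submitters' processing notes, with no role. How reads that match several repeat miRNAs were assigned is not given in the sources used here.

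Reads per library were solved from each mean (size factors of libraries a and b: AC3-/- 1.148 and 1.099, wild type 0.9411 and 0.8551). 1122 and 1126 of 1167 rows had 1 solution; on simulated tables all 1125 and 1122 such rows were right. limma 3.58.1 in R 4.3.3 was fitted with an intensity trend to log2(normalised value + 1), so it understates the change of low rows; it was tested on simulated data. p-values were adjusted by Benjamini-Hochberg over all rows tested. Adaptor ligation and PCR favour some sequences, and no molecular identifiers are described, so reads cover counting error only and levels of different miRNAs are not molecule numbers.

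The group, its lists and its tests were chosen with earlier results of these data known. Named rows are those with a mean of at least 10 in either genotype, an unadjusted p under 0.05, or the top level of their family; miR-297b-5p, miR-574-3p, miR-669e-3p, miR-669e-5p and the rows with no read in a genotype were added after their values were seen. Alternatives were the pseudocount, filters, scaling, shared rows and each library left out.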

Additional observations from a re-analysis of the deposited data

How the results depend on the processing

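No paired analysis was possible because the table's columns hold genotype means and the recovered libraries carry no replicate number. The count of 0 rows past the adjusted p held with every row counted, with p-values adjusted over rows of at least 10 (smallest 0.574), and in limma with a pseudocount of 10, a minimum of 1, no filter or scaling to recovered reads; at an unadjusted p under 0.05 it was 1, and in limma it lay between 0 and 1 with each library left out. The unshrunken median log2 ratio was 0.64 over 46 rows with reads in both genotypes, and 0.19 to 0.90 with each library left out. As shares of the column totals, which move every log2 ratio up by 0.50, the summed fold was 2.02 and 48 of 52 rows were higher. Among rows with a mean of at least 10 over both genotypes 14 of 15 were higher, and these include miR-466a-3p and miR-466b-3p, which were nearly the same observation. The share over all rows was not worked out for either count, so neither can be read as particular to the group. With each library left out, the summed fold was 1.13 to 1.74, the 3p fold 0.89 to 1.94, the 5p fold 1.15 to 1.96 and the count of higher rows 29 to 46 of 52. The family folds were then 1.93 to 3.21 (miR-297), 0.863 to 1.91 (miR-466, below 1 without AC3-/- library b), 1.1 to 1.77 (miR-467) and 1.18 to 1.79 (miR-669), an alternative chosen after seeing the data. Of 15 rows tested by limma 7 changed sign with some library left out: miR-669a-3p (-0.22 to 0.95), miR-466a-3p (-0.41 to 0.87), miR-466b-3p (-0.41 to 0.86), miR-467e-5p (-0.10 to 0.48), miR-466d-3p (-0.31 to 1.01), miR-467c-5p (-0.22 to 0.52) and miR-669f-3p (-0.90 to 0.13). The cause was not tested. miR-297b-3p passed the adjusted p without wild-type library a (1.72) and not without any of the other 3 libraries (1.02 to 1.70). Depth limits the group: the 33 rows with a mean under 10 in both genotypes hold at most 37 reads each over the 4 libraries.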

Other observations

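The miR-290 to miR-295 cluster, known from mouse embryonic stem cells and early embryos, was near the limit of detection in the olfactory epithelium. The table holds 10 rows of it, with means from 0 to 7.581 in AC3-/- and from 0 to 1.594 in wild type. By the authors' deposited table, 8 of the 10 had a log2 fold change above 0 and 2 below, with a median of 0.23. Over all 1167 rows, 49.5% were above 0 and 50.5% below. None of the 10 passed the adjusted p of 0.05, and with so few reads the 8 of 10 cannot be read as a change of the cluster. The most abundant, miR-293-3p, had 8 and 9 reads in the AC3-/- libraries against 2 and 0 in the wild-type ones. The authors' deposited table gives it a log2 fold change of 0.97 with p = 0.0499 and an adjusted p of 0.9395. At an unadjusted p under 0.05, 1.54% of all 1167 rows were higher in AC3-/- and 1.97% lower.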
